A study of Homo sapiens with 6 samples.

Results

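Tumor necrosis factor (TNF) receptors are trimeric proteins, mostly of the cell surface, that bind ligands of the TNF family. In DMS53 cells with enforced OC2 expression, 9 receptor genes were examined together with TNFSF10, which encodes the ligand TRAIL. The 10 genes were chosen by name, with earlier results of these data known. They were taken from TNF receptors studied in epithelial and tumor cells and the ligand of the TRAIL receptors. Each was found by its symbol among the 62696 genes of the count tables. DMS53 is an established small cell lung cancer (SCLC) line with neuroendocrine (NE) features. All cells had been infected with lentivirus and selected with puromycin, in RPMI-1640 medium with FBS and penicillin/streptomycin. The control group carried the empty mGFP-P2A-Puro vector. The OC2-OE group carried the same vector with an mGFP-tagged ONECUT2 open reading frame, which encodes the transcription factor OC2, driven constitutively. Each group had 3 RNA-Seq libraries. The comparison of OC2-OE with control asks which transcripts differ when OC2 is forced. It is limited to 1 cell line, to selected populations and to an exogenous, mGFP-tagged, constitutively expressed OC2. Although the study calls the experiments independent, the labels number the libraries 1 to 3 without naming separate infections. The p-values measure the spread between these libraries, which may be technical.

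The receptors examined here fall into 2 classes. Death-domain receptors, which here are TNFRSF1A, FAS, TNFRSF10A, TNFRSF10B and TNFRSF21, carry a cytoplasmic domain that recruits adaptors such as TRADD and FADD, and can start caspase-8 driven apoptosis or, through RIPK1 and ubiquitin ligases, NF-kB signaling. The other receptors, TNFRSF1B, TNFRSF12A, LTBR and CD40, bind TRAF proteins and lead to classical or alternative NF-kB signaling without a death domain. TRAIL binds TNFRSF10A and TNFRSF10B, also called DR4 and DR5, and is known for killing tumor cells. SCLC is known for low expression of caspase-8.

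Between 16533284 and 19099337 read pairs were counted per library, and the libraries of a group were close to each other. ONECUT2 itself had 465, 412 and 394 counts in control and 74031, 68853 and 72763 in OC2-OE, a log2 fold change (log2FC) of 7.32 ± 0.03 (SE), in the direction the labels give, in a count that takes in the introduced reading frame. In the fit over all 17307 genes with enough counts, 9776 genes (56.5%) passed an adjusted p of 0.001, the threshold for a call here, 27.8% being higher and 28.7% lower in OC2-OE, and the median log2 fold change was 0.007. In 73.2% of the tested genes the 3 libraries of one group did not overlap with the 3 of the other. With so many genes changed, a call alone does not set a receptor apart, so sizes and levels are given. All 8 NE markers examined were expressed in every library, with summed levels of 2097 to 2133 CPM in control and 3139 to 3178 CPM in OC2-OE. SCG2 carries that sum, and without it the other 7 summed to 1305 to 1327 CPM in control and 872 to 895 CPM in OC2-OE. Of the 8 markers SCG2 and CHGA rose, INSM1, NCAM1, SYP, DLL3 and CHGB fell (CHGB not in 5 of 14 alternatives), and SCG3 was not called. Of 10 markers of leukocytes, fibroblasts, endothelium and lung epithelium, PTPRC, CD3E, SFTPC and SCGB1A1 had at most 1 count in any library, and the summed level of all 10 was 26.5 to 30.2 CPM in control and 37.2 to 41.5 CPM in OC2-OE, COL1A1, CD14, LYZ and PDGFRB being higher. The part of these differences in the receptor results was not tested. In RNA from whole cultures, fewer cells of a type and less RNA per cell cannot be told apart.

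Of the 10 genes, 8 passed the filter on low counts and were tested. TNFRSF10B, TNFRSF10A and LTBR rose in OC2-OE, TNFRSF1A and TNFRSF21 fell, and FAS, CD40 and TNFRSF12A were not called. Thus 5 of 8 were called against 56.5% of all tested genes, 3 were higher against 27.8%, 2 were lower against 28.7%, and 7 of 8 had groups that did not overlap against 73.2%. At an adjusted p under 0.05, 5 of 8 were higher against 35.6% of all tested genes and 2 were lower against 35.7%. With only 8 genes tested, none of these shares is a result about the family. The median log2 fold change of the 8 was 0.48, with a range from -1.14 to 1.62. Calls went both ways within the death-domain class, in which the TRAIL receptors rose while TNFRSF1A and TNFRSF21 fell.

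The start regions of the receptors that changed are shown first, since OC2 is a DNA-binding factor whose known core motifs are ATTGAT and ATCGAT, and the family is known for NF-kB control. RefSeq windows of 250 bases before a transcript start (GRCh38.p14) were at hand for 6 of the 10 genes, namely TNFRSF1A, TNFRSF1B, FAS, TNFRSF21, LTBR and TNFSF10. No window was used for TNFRSF10A, TNFRSF10B, TNFRSF12A and CD40. The windows below are those of the 3 called receptors that have one, and the FAS window that holds a match, read 5′ to 3′ on the strand of the gene, with capitals for matches to ATTGAT on either strand. The RefSeq starts of LTBR, FAS, TNFRSF1A and TNFSF10 lie inside the longer gene bodies of the count tables. The positions are chr12:6342077-6342326 (minus strand) for TNFRSF1A, chr6:47309906-47310155 (minus strand) for TNFRSF21, chr12:6383912-6384161 (plus strand) for LTBR and chr10:88990548-88990797 (plus strand) for FAS.
TNFRSF1A: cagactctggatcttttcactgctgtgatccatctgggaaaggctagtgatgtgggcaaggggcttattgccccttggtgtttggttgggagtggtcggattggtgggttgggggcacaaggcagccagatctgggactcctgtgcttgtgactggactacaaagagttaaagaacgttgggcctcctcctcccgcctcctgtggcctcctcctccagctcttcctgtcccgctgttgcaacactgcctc
TNFRSF21: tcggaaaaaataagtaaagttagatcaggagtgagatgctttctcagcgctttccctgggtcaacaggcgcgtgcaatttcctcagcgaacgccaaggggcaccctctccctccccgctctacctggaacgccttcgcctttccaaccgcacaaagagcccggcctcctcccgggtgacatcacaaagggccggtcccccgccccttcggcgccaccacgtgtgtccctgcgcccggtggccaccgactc
LTBR: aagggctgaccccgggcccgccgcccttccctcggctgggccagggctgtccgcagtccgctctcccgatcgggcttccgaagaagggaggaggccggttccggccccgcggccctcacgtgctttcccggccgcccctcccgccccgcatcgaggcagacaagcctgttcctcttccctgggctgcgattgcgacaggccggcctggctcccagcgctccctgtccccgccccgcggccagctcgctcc
FAS: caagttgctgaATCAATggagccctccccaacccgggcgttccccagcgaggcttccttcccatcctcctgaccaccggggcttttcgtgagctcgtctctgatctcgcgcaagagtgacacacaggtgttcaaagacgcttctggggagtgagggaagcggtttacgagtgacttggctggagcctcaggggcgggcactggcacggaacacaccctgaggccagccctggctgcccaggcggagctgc

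ATTGAT, searched on both strands, was present in 5.58% of 35116 RefSeq promoter windows of this length, ATCGAT, which reads the same on both strands, in 0.655%, and the kappaB consensus, searched on both strands, in 9.96%. The windows of TNFRSF1A, TNFRSF21, LTBR, TNFRSF1B and TNFSF10 held none of the 3. FAS has 3 windows for different transcript starts. In the one printed, the letters ATCAAT, the reverse complement of ATTGAT, begin 239 bases before the start. A second FAS window, chr10:88991181-88991430, holds a kappaB match, GGGGGACCCC, that begins 157 bases before its start. A match is a run of letters, not a bound site, and its absence covers only these windows.

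TNFRSF10B (ENSG00000120889.13, chr8:23020133-23069031, minus strand) encodes DR5, a death receptor for TRAIL. It had 275, 217 and 234 counts in control and 800, 709 and 860 in OC2-OE, which is 14.7, 12.97 and 14.4 CPM against 41.7, 40.9 and 47.2 CPM after TMM normalization. Every OC2-OE library lay far above every control library. The mean rose from 14.03 ± 0.930 to 43.3 ± 3.41 CPM (SD over 3 libraries), a 3.08-fold difference with a log2FC of 1.62 ± 0.07 (SE) and an adjusted p of 3.43e-45 in edgeR. This was the largest rise among the 8 tested genes.

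TNFRSF10A (ENSG00000104689.10, chr8:23190452-23225102, minus strand) encodes DR4, the other TRAIL receptor with a death domain. Counts were 138, 126 and 103 in control and 246, 199 and 213 in OC2-OE, or 7.39, 7.53 and 6.33 CPM against 12.8, 11.5 and 11.7 CPM. The groups did not overlap. The mean rose from 7.08 ± 0.653 to 12.004 ± 0.729 CPM (SD over 3 libraries), with a log2FC of 0.76 ± 0.11 (SE) and an adjusted p of 2.35e-10 in edgeR. The larger rise of TNFRSF10B moved the balance of the pair. Per kilobase of exon, TNFRSF10B stood at 1.16, 1.01 and 1.33 times TNFRSF10A in control and at 1.90, 2.08 and 2.36 times in OC2-OE, a ratio chosen after its values were seen and given without a test.

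Both lie in a cluster on chromosome 8 with the decoy receptors, which bind TRAIL without signaling death. The cluster runs TNFRSF10B, TNFRSF10C, TNFRSF10D and TNFRSF10A, with gaps of 33.9, 18.1 and 26.4 kb between the gene bodies. TNFRSF10D, a decoy with a truncated death domain, had 11, 20 and 19 counts in control and 70, 67 and 73 in OC2-OE, and rose with a log2FC of 1.98 ± 0.23 (SE) and an adjusted p of 2.83e-13 in edgeR. TNFRSF10C, a decoy anchored by a lipid, had 30 counts in all control libraries together and 33 in OC2-OE and was not called (log2 fold change 0.05, 95% confidence interval -0.74 to 0.85, adjusted p = 0.912), and 33.0% of its exon bases are shared with other genes on the same strand, where counts can be lost. Thus 3 of the 4 genes of the cluster rose, beside 27.8% of all tested genes, and so few genes are not a result about the cluster. The level of TNFRSF10D per length was 0.0567, 0.131 and 0.115 of that of TNFRSF10B in control and 0.124, 0.134 and 0.120 in OC2-OE, values that overlap between groups.

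TNFSF10 (ENSG00000121858.11, chr3:172505508-172523475, minus strand), the gene of TRAIL itself, was barely detected. It had 3, 1 and 2 counts in control and 3, 3 and 6 in OC2-OE, below the filter on low counts. Without the filter it was not called (log2FC 0.89 ± 0.85 SE, adjusted p = 0.486, edgeR). The ratio of the summed counts per read pair, 12 against 6, was 1.96 with a 95% counting interval from 0.680 to 6.35, which covers counting error only. No difference in TRAIL mRNA was detectable at this depth, while TNFRSF10A and TNFRSF10B had at least 103 counts in every library.

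FAS (ENSG00000026103.25, chr10:88953813-89029605, plus strand) encodes the receptor of FAS ligand, the model death receptor. It had 31, 42 and 46 counts in control and 66, 67 and 58 in OC2-OE, or 1.66, 2.51 and 2.83 CPM against 3.44, 3.87 and 3.18 CPM. All OC2-OE libraries were above all control libraries, but the spread within control was wide. The means were 2.33 ± 0.605 and 3.50 ± 0.345 CPM (SD over 3 libraries), and the log2 fold change of 0.60 (standard error 0.19, 95% confidence interval 0.21 to 0.98) had an adjusted p of 0.00415 by edgeR, short of the threshold of 0.001. A stretch of 166 of its exon bases is shared with STAMBPL1. Its ligand gene FASLG had 3, 2 and 4 counts in control and 1, 2 and 4 in OC2-OE and was not tested.

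TNFRSF1A (ENSG00000067182.9, chr12:6328757-6342114, minus strand) encodes TNFR1, the main receptor of TNF on most cells. It had 629, 513 and 524 counts in control and 270, 257 and 273 in OC2-OE, or 33.7, 30.7 and 32.2 CPM against 14.1, 14.8 and 14.98 CPM. The groups were well apart, with little spread in either. The level fell from 32.2 ± 1.505 to 14.6 ± 0.479 CPM (SD over 3 libraries), that is, control was 2.20-fold higher, with a log2FC of -1.14 ± 0.07 (SE) and an adjusted p of 9.69e-31 in edgeR. This was the largest fall among the 8 tested genes.

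TNFRSF21 (ENSG00000146072.6, chr6:47231532-47309905, minus strand) encodes DR6, a death receptor known from neurons. Its counts were 4334, 3576 and 3648 in control and 2247, 2060 and 2245 in OC2-OE, or 232, 214 and 224 CPM against 117, 119 and 123 CPM. Each OC2-OE library was below each control library. The level fell from 223 ± 9.17 to 119.8 ± 3.08 CPM (SD over 3 libraries), with a log2FC of -0.90 ± 0.03 (SE) and an adjusted p of 1.31e-53 in edgeR.

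**Figure D1:**
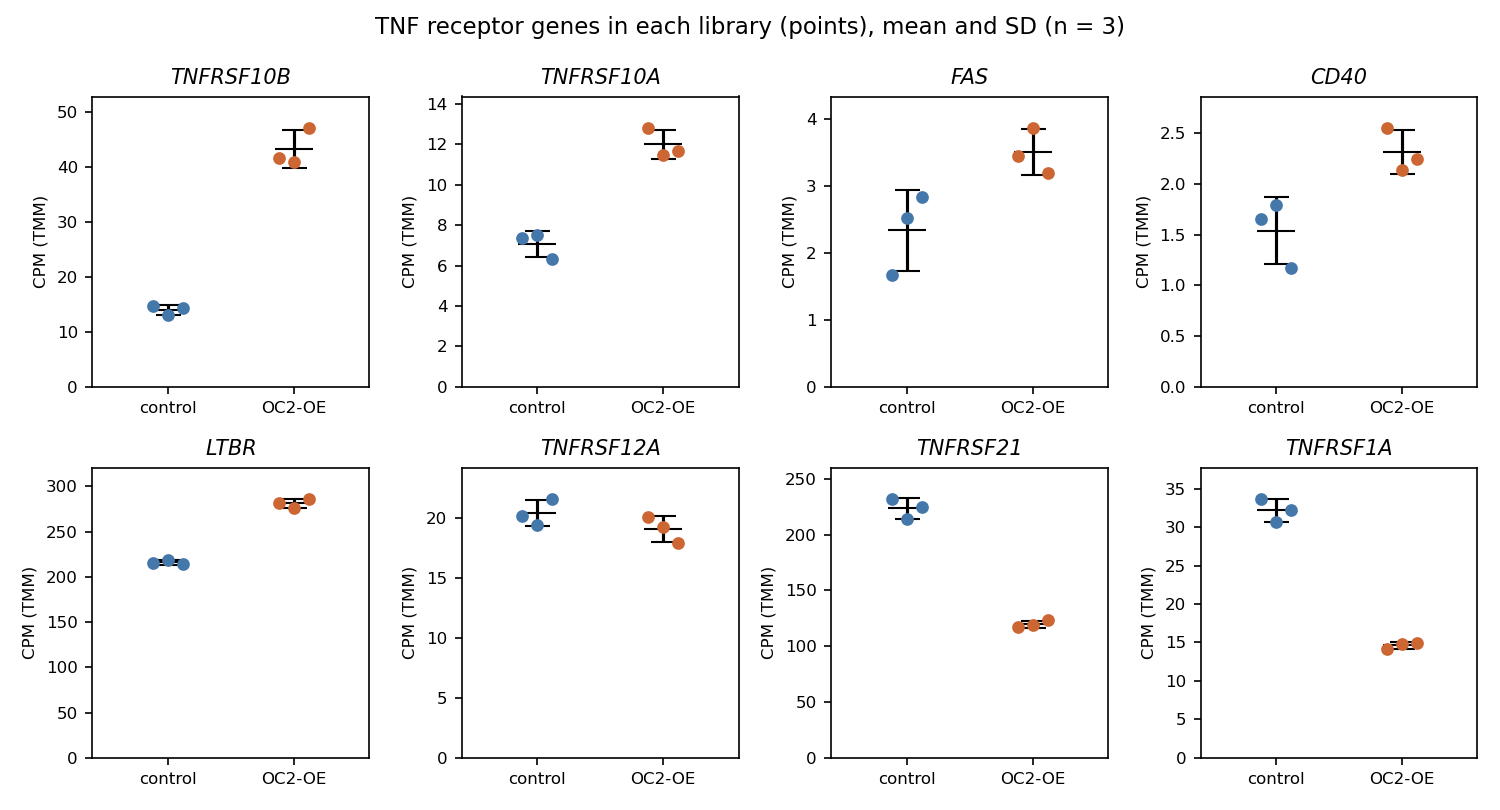
Normalized level of the 8 tested receptor genes in each library, as CPM after TMM normalization on axes that start at 0, with the group in columns, 1 point for each library, and the mean and SD of 3 libraries as bars. TNFRSF10B, TNFRSF10A and LTBR are higher in every OC2-OE library and TNFRSF21 and TNFRSF1A lower in every one, whereas the points of TNFRSF12A overlap between groups.

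Among the receptors without a death domain, LTBR rose, TNFRSF12A and CD40 were not called, and TNFRSF1B was almost silent. LTBR (ENSG00000111321.11, chr12:6375045-6391571, plus strand) encodes the lymphotoxin beta receptor, an activator of alternative NF-kB signaling. It had 4028, 3664 and 3478 counts in control and 5393, 4795 and 5217 in OC2-OE, or 216, 219 and 214 CPM against 281, 277 and 286 CPM. The groups did not overlap and the spread within each was small. The level rose from 216 ± 2.59 to 281.5 ± 4.81 CPM (SD over 3 libraries), only 1.30-fold, with a log2FC of 0.38 ± 0.03 (SE) and an adjusted p of 4.28e-27 in edgeR.

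LTBR and TNFRSF1A lie 32.9 kb apart on chromosome 12 and are transcribed away from each other, and they changed in opposite directions. Only genes of the family were placed, so genes of other families that may lie between them were not examined.

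TNFRSF12A (ENSG00000006327.14, chr16:3018445-3022383, plus strand) encodes Fn14, the receptor of TWEAK. Its counts were 377, 325 and 351 in control and 384, 333 and 326 in OC2-OE, or 20.2, 19.4 and 21.6 CPM against 20.04, 19.2 and 17.9 CPM. The groups overlapped. The means were 20.4 ± 1.10 and 19.05 ± 1.08 CPM (SD over 3 libraries), and the log2 fold change of -0.10 had a 95% confidence interval from -0.24 to 0.05 (adjusted p = 0.236 by edgeR), so that a change as large as that of LTBR lies outside the interval.

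CD40 (ENSG00000101017.15, chr20:46118271-46129863, plus strand), a receptor best known from B cells and antigen-presenting cells, had 31, 30 and 19 counts in control and 49, 37 and 41 in OC2-OE. This is 1.66, 1.79 and 1.17 CPM against 2.56, 2.14 and 2.25 CPM, without overlap. The means were 1.54 ± 0.329 and 2.31 ± 0.218 CPM (SD over 3 libraries), and the log2 fold change of 0.58 (standard error 0.23, 95% confidence interval 0.12 to 1.05, adjusted p = 0.0211 by edgeR) was not called. TNFRSF1B (ENSG00000028137.19, chr1:12166991-12209228, plus strand), which encodes TNFR2, the TNF receptor of lymphoid cells, had 0, 1 and 0 counts in control and 0, 1 and 2 in OC2-OE. It was below the filter, was not called without it (adjusted p = 0.579, edgeR), and no fold is given since neither group exceeds 3 counts.

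Levels of different genes were compared per kilobase of exon and sequencing depth (RPKM). In the control libraries TNFRSF21 was the most abundant of the 10 genes, at 62.1 ± 2.55 RPKM (SD, n = 3), followed by LTBR at 35.1 ± 0.421, TNFRSF12A at 11.3 ± 0.609 and TNFRSF1A at 7.65 ± 0.358 RPKM. The TRAIL receptors stood lower, TNFRSF10B at 2.80 ± 0.186 and TNFRSF10A at 2.42 ± 0.223 RPKM, with ranges of 2.59 to 2.94 and 2.16 to 2.57. CD40 at 0.274, FAS at 0.0796, TNFSF10 at 0.0333 and TNFRSF1B at 0.00527 RPKM closed the order. Most mRNA of the receptors chosen here was thus that of TNFRSF21 and LTBR. The places of TNFSF10 and TNFRSF1B rest on 6 counts and 1 count.

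In the OC2-OE libraries the order of the abundant receptors was different. LTBR came first at 45.8 ± 0.782 RPKM (SD, n = 3), ahead of TNFRSF21 at 33.3 ± 0.858 and TNFRSF12A at 10.6 ± 0.601 RPKM. TNFRSF10B moved up to 8.64 ± 0.682 RPKM and TNFRSF10A to 4.10 ± 0.249, both now above TNFRSF1A at 3.48 ± 0.114 RPKM. CD40 at 0.412, FAS at 0.119, TNFSF10 at 0.0638 and TNFRSF1B at 0.0148 RPKM kept their ranks. The ranges over libraries of neighbors in either order did not overlap. With the exon lengths of GENCODE release 29, an alternative chosen after seeing the data, all 10 genes kept their ranks in both groups, but the ranges of CD40 and FAS overlapped in both groups and those of TNFRSF10B and TNFRSF10A in control. The level of FAS depends most on this choice, since its exons span 29313 bases in the count tables and 4253 in release 29, which puts it at 0.548 RPKM in control and 0.823 RPKM in OC2-OE.

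**Figure D2:**
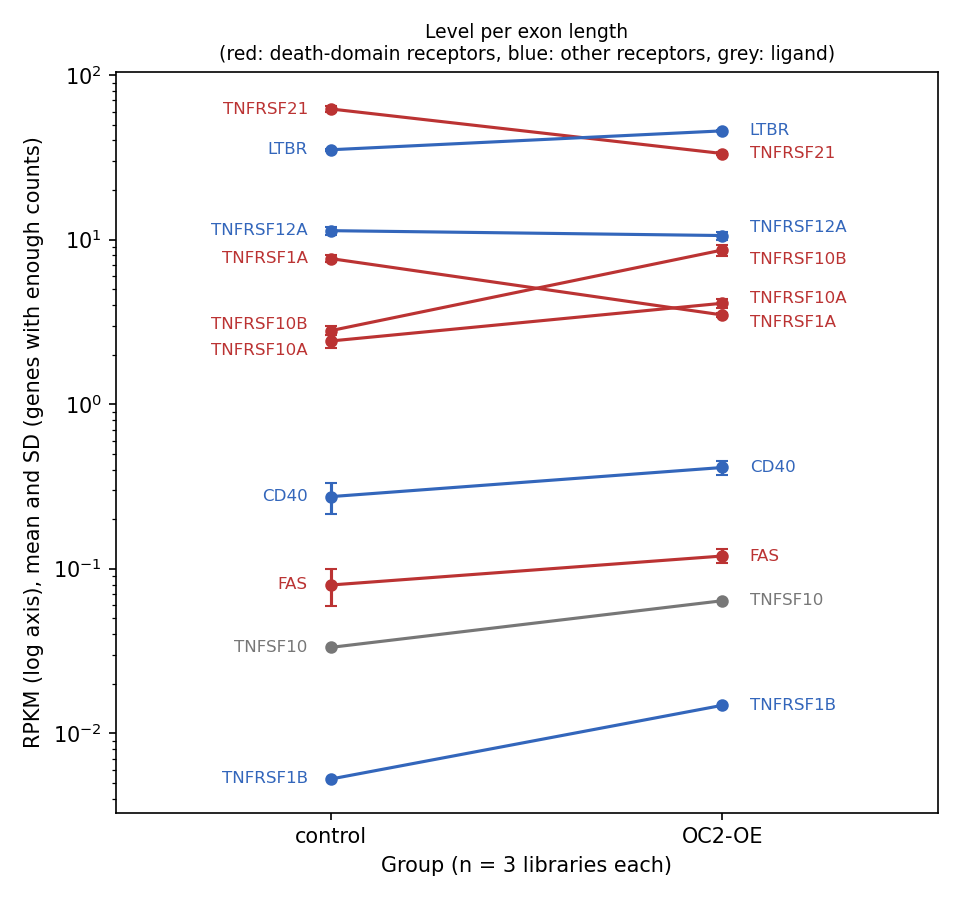
Mean level per exon length (RPKM, log axis) of the 10 genes in control and OC2-OE, with SD bars over 3 libraries for the 8 tested genes; red marks death-domain receptors, blue the other receptors and grey TRAIL. The lines of TNFRSF21 and LTBR cross, as do those of TNFRSF10B and TNFRSF10A with TNFRSF1A.

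These crossings can be put as ratios within a library. TNFRSF10B per length was 0.367, 0.355 and 0.375 of TNFRSF1A in control and 2.49, 2.32 and 2.64 times TNFRSF1A in OC2-OE. LTBR was 0.543, 0.599 and 0.557 of TNFRSF21 in control and 1.40, 1.36 and 1.36 times in OC2-OE. Both ratios were below 1 in every control library and above 1 in every OC2-OE library. They were chosen after the values were seen and repeat the changes above, so no test is given.

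The summed level of the 9 receptors was 121.8 ± 2.96 RPKM (SD, n = 3) in control and 106.4 ± 1.72 RPKM (SD, n = 3) in OC2-OE. Death-domain receptors made up 61.6% ± 1.00 of that sum in control and 46.7% ± 0.733 in OC2-OE (SD, n = 3). Other TNF receptors are not in the sum. TNFRSF25, for example, also has a death domain and stood at 10.8 RPKM in control and 15.7 RPKM in OC2-OE. The shares thus hold for the chosen genes only. The largest differences in share were those of the 2 most abundant genes. TNFRSF21 went from 51.0% to 31.3% of the sum and LTBR from 28.9% to 43.0%, while TNFRSF10B went from 2.30% to 8.11% and TNFRSF1A from 6.28% to 3.27%. These shares describe mRNA, not receptor protein on the cell surface.

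The genes whose profiles over the 6 libraries were most like those of the extremes were then sought, by Euclidean distance of log2 CPM over the 6 libraries. Closest to TNFRSF10B were TCTN1 (distance 0.33), TNIK (0.377) and PANX2 (0.377), and closest to TNFRSF1A were CLSTN2 (0.147), ZNF850 (0.152) and TRIM16 (0.184). These genes lie close to the receptors in level as well as in change.

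The other genes of the family and its pathway put these values in context. They were taken from lists of other receptors, ligands, receptor adaptors with ubiquitin enzymes, and death signaling, and the 3 genes with the largest change among those called are named for each. Of 20 other TNF receptors 12 were tested, 4 were higher and 5 lower in OC2-OE and 3 were not called, with a median log2 fold change of -0.25, beside 27.8% higher, 28.7% lower and a median of 0.007 for all genes tested. TNFRSF9, which encodes the costimulatory receptor 4-1BB, had 50, 28 and 59 counts in control and 1063, 1004 and 1029 in OC2-OE, with a log2FC of 4.41 ± 0.09 (SE) and an adjusted p of 3.95e-66 in edgeR. Its log2FC was larger than that of any of the 8 tested receptors above. TNFRSF10D is given above, and TNFRSF14, the receptor HVEM, which binds LIGHT, rose from 5.87 ± 0.417 to 14.7 ± 0.428 CPM (SD over 3 libraries), with a log2FC of 1.33 ± 0.10 (SE) and an adjusted p of 6.71e-23 in edgeR. TNFRSF25, a further death-domain receptor, also rose (log2 fold change 0.53), while TNFRSF11A, TNFRSF11B, TNFRSF13C, TNFRSF19 and RELT fell. The call of TNFRSF13C (adjusted p = 0.000842, edgeR) was borderline and held in only 4 of 14 alternatives.

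Of 17 other TNF ligands only 7 were tested, 4 being higher, 2 lower and 1 not called, beside 27.8% and 28.7% of all genes tested, and the median log2FC was 1.15. These 7 are the ligands with enough counts in at least one group, so the count is not a result about all ligands. TNF, the ligand of TNFRSF1A and TNFRSF1B, had 3, 7 and 3 counts in control and 191, 161 and 172 in OC2-OE, with a log2FC of 5.21 ± 0.24 (SE) and an adjusted p of 1.25e-41 in edgeR. The ligand thus rose where its receptor TNFRSF1A fell, and TNFRSF1B was near 0. TNFSF12, which encodes TWEAK, the ligand of TNFRSF12A, had 22, 21 and 20 counts in control and 119, 107 and 80 in OC2-OE (log2FC 2.19 ± 0.20 SE, adjusted p = 4.13e-19, edgeR), and 12.1% of its exon bases are shared with the TNFSF12-TNFSF13 read-through gene, as are 55.5% of those of TNFSF13, which also rose (log2 fold change 1.15). LTB, which encodes the ligand of LTBR together with LTA, rose with a log2FC of 2.05 ± 0.17 (SE) and an adjusted p of 4.62e-21 in edgeR, while LTA had 4 counts in control and 2 in OC2-OE. TNFSF8, the ligand of CD30, fell from 15, 31 and 30 counts in control to 3, 4 and 4 in OC2-OE (log2FC -2.83 ± 0.42 SE, adjusted p = 2.57e-09, edgeR), and TNFSF15 fell by 0.37 on the log2 scale. CD40LG, the ligand of CD40, had 0 counts in all 6 libraries. By ligand and receptor, the ligand mRNA was higher for TNFRSF1A and TNFRSF12A. For LTBR only the LTB subunit was higher, and TNFSF14, another ligand of LTBR, had 0 counts. Ligand mRNA was at most 6 counts per library for FAS, CD40 and the TRAIL receptors.

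**Figure D3:**
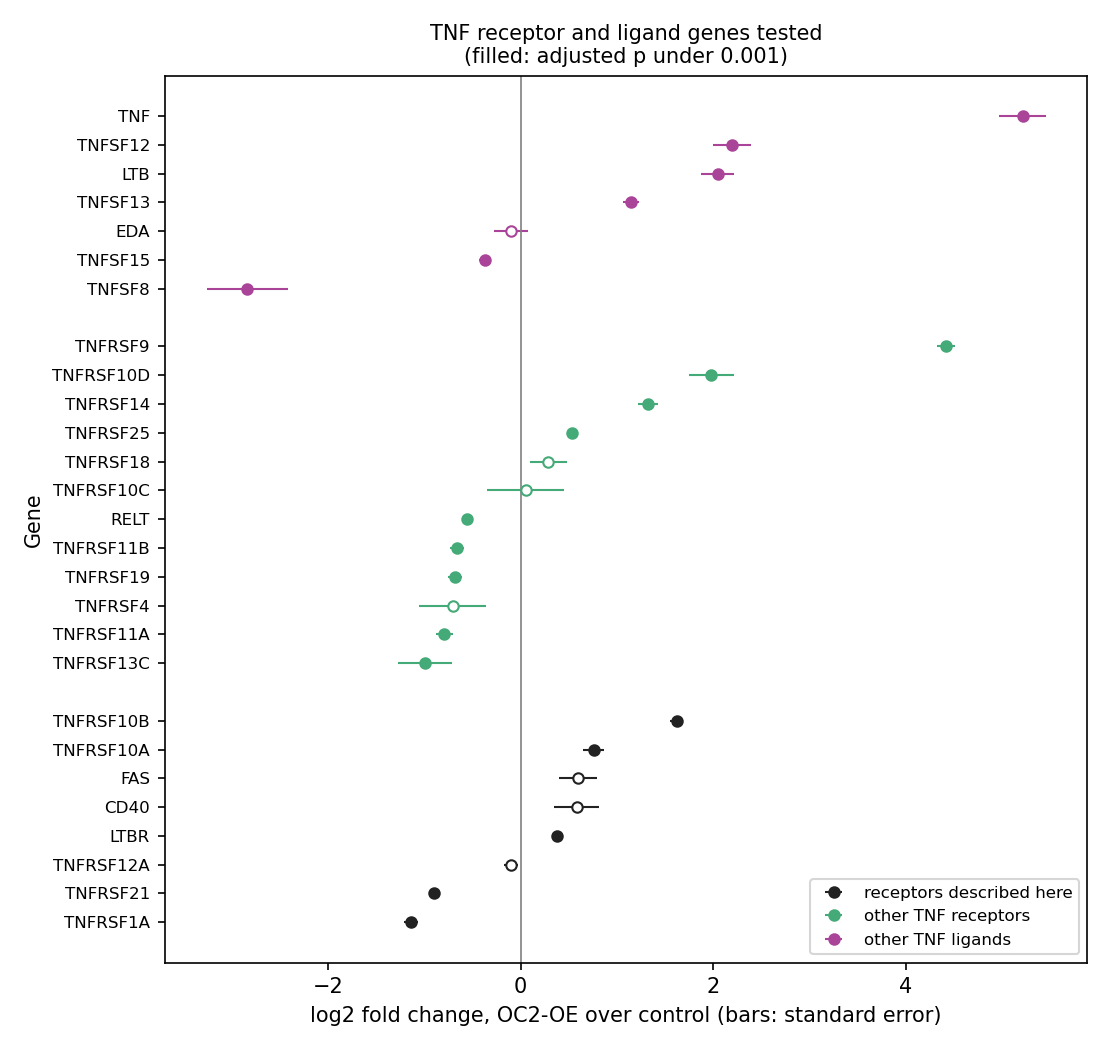
Log2 fold change of OC2-OE over control for every tested gene among the receptors described here (black), the other TNF receptors (green) and the other TNF ligands (purple), with standard errors as bars and filled symbols for an adjusted p under 0.001. The receptors described here lie between -1.14 and 1.62, inside the range from -2.83 (TNFSF8) to 5.21 (TNF) of the rest of the family.

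All 23 genes for adaptors and ubiquitin enzymes of the receptor complexes were tested, 10 were higher, 6 lower and 7 not called, against 27.8% and 28.7% of the whole tested set, and the median log2FC was 0.12. BIRC3, which encodes the ubiquitin ligase cIAP2 and is a known NF-kB target, rose from 16.1 ± 0.670 to 158 ± 3.07 CPM (SD over 3 libraries), with a log2FC of 3.30 ± 0.05 (SE) and an adjusted p of 1.34e-93 in edgeR. TNFAIP3, which encodes A20, a deubiquitinase that limits TNF receptor signaling and another known NF-kB target, rose from 12.3 ± 0.885 to 83.7 ± 0.811 CPM (SD over 3 libraries), with a log2FC of 2.76 ± 0.06 (SE) and an adjusted p of 1.62e-75 in edgeR. MAP3K14, the kinase NIK of alternative NF-kB signaling, fell from 67.3 ± 3.46 to 32.7 ± 1.53 CPM (SD over 3 libraries), with a log2FC of -1.04 ± 0.05 (SE) and an adjusted p of 1.78e-39 in edgeR. Of the adaptors that bind death domains, TRADD rose (log2 fold change 0.96) and FADD fell (-0.46), and RIPK1 was not called (0.05, adjusted p = 0.256). Of the TRAF genes, TRAF1 (0.69) and TRAF3 (0.89) rose and TRAF2 (-0.85) and TRAF4 (-0.78) fell. TRAF5 (-0.11, adjusted p = 0.0585, edgeR) and TRAF6 (0.12, adjusted p = 0.105, edgeR) were not called.

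In death signaling 10 of 11 genes were tested, 6 were higher, 1 was lower and 3 were not called, against 27.8% and 28.7% of the whole tested set, and the median log2FC was 0.57. CASP8, which encodes the initiator caspase of the death receptors, had 507 counts in the control libraries together and 839 in OC2-OE, and rose from 9.86 ± 1.06 to 15.3 ± 1.04 CPM (SD over 3 libraries), with a log2FC of 0.64 ± 0.09 (SE) and an adjusted p of 9.26e-10 in edgeR. CFLAR, which encodes its inhibitor c-FLIP, rose from 64.5 ± 2.81 to 105.4 ± 0.952 CPM (SD over 3 libraries), with a log2FC of 0.71 ± 0.04 (SE) and an adjusted p of 2.88e-34 in edgeR. MLKL, the effector of necroptosis, rose with a log2FC of 0.95 ± 0.12 (SE) and an adjusted p of 8.45e-12 in edgeR. Genes that rose on this short list thus include an activator of apoptosis and its inhibitor. XIAP (0.54), an inhibitor of caspases, and RIPK3 (0.60, with 11.1% of its exon bases shared with another gene) also rose, and CASP10 had 16 counts in control and 33 in OC2-OE and was not tested. These are levels of mRNA, and cell death was not measured here.

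**Figure D4:**
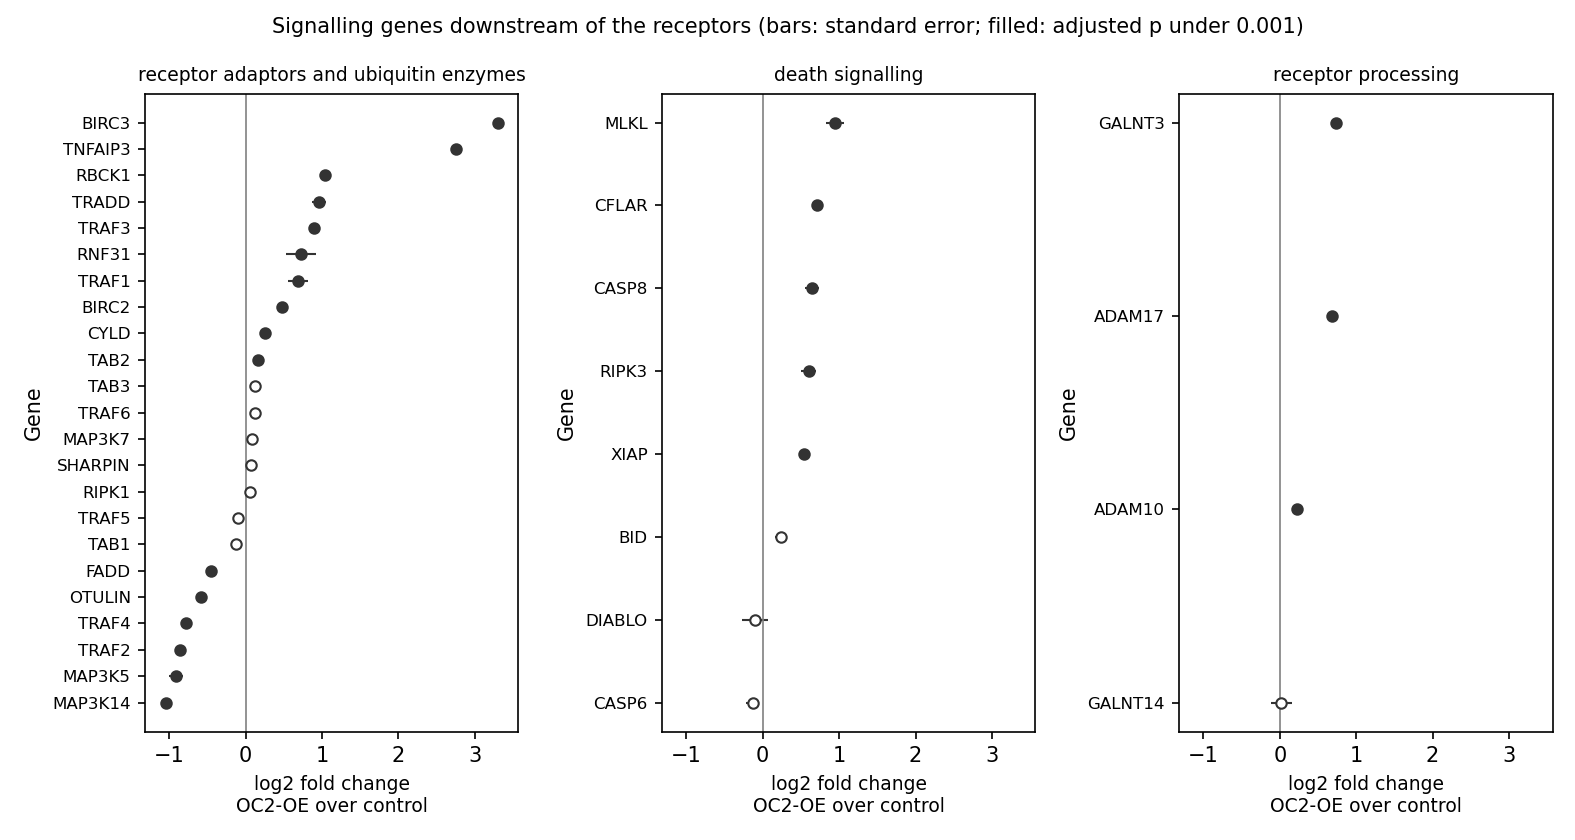
Log2 fold change of OC2-OE over control, with standard errors as bars, for the tested and reported genes of 3 lists, namely receptor adaptors with ubiquitin enzymes, death signaling and receptor processing, with filled symbols for an adjusted p under 0.001. BIRC3 at 3.30 and TNFAIP3 at 2.76 stand apart on the first list, and MLKL at 0.95 is the highest of death signaling.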

How the data were processed

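Stranded poly(A) libraries were aligned by the authors with STAR (2.7.9a), and read pairs were assigned to genes by featureCounts (1.6.0), per the file headers and the submitters' processing notes. The deposited values are raw counts for 62696 genes of GENCODE release 42 (GRCh38), with the exons of a gene merged, the strand used and no normalization. Symbols were matched for 62625 genes.

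In R version 4.3.3, counts were normalized by TMM, filtered with filterByExpr and tested with the quasi-likelihood test of edgeR version 4.0.16 (all 6 libraries, no covariate, Benjamini-Hochberg adjustment over 17307 genes). The threshold of 0.001 is that of the study's methods. CPM and RPKM use TMM-scaled library sizes and RPKM the gene lengths in the files. Standard errors (SE) were derived from the log2FC and the F statistic. Depth limits the precision of low genes, and counting intervals and floors (3 counts) cover counting error only.

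The 10 genes, the pathway lists and the rule for named genes (all 10, plus 3 per list, those called with the greatest absolute log2FC) were chosen with earlier results of these data known. TNFRSF10C, TNFRSF25, TNFSF13, LTB, LTA, TNFSF15, FASLG, CD40LG and the other pathway genes outside the rule were named for their place in the pathway after values had been seen. Alternatives were other normalizations (DESeq2 size factors, library size only), DESeq2 (1.42.0, Wald test), limma voom (3.58.1), other filters and thresholds, a replicate block and leaving out each library. A few genes counted on the lists are not reported here by name. The steps were tested on simulated data in which far fewer genes changed than were called here. That simulation therefore does not cover normalization when so many genes change.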

Additional observations from a re-analysis of the deposited data

How the results depend on the processing

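TNFRSF10B, TNFRSF10A, LTBR, TNFRSF1A and TNFRSF21 kept direction and call under each of the 14 alternatives run for them, with log2 fold changes of 1.56 to 1.67, 0.69 to 0.81, 0.37 to 0.43, -1.17 to -1.09 and -0.93 to -0.85. FAS (0.39 to 0.75, adjusted p 0.00162 to 0.0882) and CD40 (0.42 to 0.70, adjusted p 0.0121 to 0.131) stayed without a call, their lowest values coming without control replicate 1 for FAS and without control replicate 3 for CD40, and TNFRSF12A stayed between -0.13 and -0.05. At an adjusted p under 0.05 FAS and CD40 were added, so that 5 of the 8 tested genes were higher, against 35.6% of all tested genes. With a required log2FC of 1 or more in size, 1 gene was higher (TNFRSF10B) and 1 lower (TNFRSF1A), on the 5 pathway lists together 10 genes were higher instead of 27 and 2 lower instead of 14, and over all genes 1435 were higher and 1564 lower, since that setting asks for a larger change. The uncalled values of TNFRSF10C (-0.15 to 0.18 with 1 library left out) and GALNT14 (-0.068 to 0.12) changed sign. TNFRSF13C kept its direction (-1.13 to -0.88, adjusted p 0.000409 to 0.00868) and lost its call in 10 alternatives, and CHGB lost its call in 5. Scaling by library size only gave the highest value for each of the 5 called genes. With at least 10 counts required in every library, TNF and TNFSF8 were not tested. Under that filter 3 of the other TNF ligands were higher and 1 was lower.

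Libraries of both groups are numbered 1 to 3, but deviations of same-numbered libraries from their group means correlated by -0.003, 0.02 and 0.015 over genes, so the numbers were not taken as pairs. With the replicate block, 3 of the 8 tested genes were higher and 2 lower, as without it, and on the 5 pathway lists 26 were higher and 13 lower. With no filter on low counts, TNFSF10 (log2FC 0.89 ± 0.85 SE, adjusted p = 0.486) and TNFRSF1B (adjusted p = 0.579) were tested in edgeR and not called. The counts of FAS and CD40 leave wide intervals.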

Other observations

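Genes whose products act on TNF receptors and their ligands after translation were also examined. Of 4 such genes tested, 3 were higher in OC2-OE and none was lower, beside 27.8% and 28.7% of all tested genes, with a median log2 fold change of 0.46. GALNT3, an enzyme that starts O-linked glycosylation of proteins, rose from 35.5 ± 1.80 to 59.4 ± 2.69 CPM (SD over 3 libraries), with a log2FC of 0.74 ± 0.05 (SE) and an adjusted p of 5.72e-27 in edgeR. ADAM17, the protease that sheds TNF and both TNF receptors from the cell surface, rose from 50.5 ± 1.24 to 81.2 ± 2.42 CPM (SD over 3 libraries), with a log2FC of 0.69 ± 0.04 (SE) and an adjusted p of 1.00e-29 in edgeR. ADAM10, a related sheddase, rose from 86.9 ± 6.54 to 101.6 ± 3.57 CPM (SD over 3 libraries), with a log2FC of 0.23 ± 0.04 (SE) and an adjusted p of 3.69e-07 in edgeR. GALNT14, an enzyme known to glycosylate TRAIL receptors, had 277 counts in control and 298 in OC2-OE and was not called (log2FC 0.02 ± 0.14 SE, adjusted p = 0.894, edgeR).

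Part of the family had no counts. TNFRSF6B, a soluble decoy receptor of FAS ligand, had 0 counts in all 6 libraries, but 100% of its exon bases are shared with the RTEL1-TNFRSF6B read-through gene on the same strand, so that its reads could not be assigned to it. The receptor gene TNFRSF17 and the ligand genes CD40LG, CD70 and TNFSF14, none of which overlaps another gene on its strand, also had 0 counts in all 6 libraries.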
